A study of Mus musculus with 2 samples.

Results

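The Zbtb genes encode transcription factors that carry a BTB domain near one end and C2H2 zinc fingers near the other. They were taken here as every protein-coding gene whose symbol is Zbtb followed by a number, with or without a letter. Of 21480 protein-coding genes with a known strand, 40 met this rule. Binding of CHD2 had been measured by ChIP-seq, in which DNA bound by a protein is pulled down with an antibody and sequenced. The cells were ES-E14, a male embryonic stem cell line of mouse strain 129/Ola, in 1 group of 2 biological replicates. The labels name no treatment and no introduced allele, and they do not say how the replicate cultures were kept apart. The data were lists of peaks, so the expression of stem cell markers could not be checked.

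The BTB domain lets these proteins pair with one another and recruits corepressors such as Ncor1 and Bcor, or the ubiquitin ligase scaffold Cul3. The zinc fingers read DNA, and members differ in the sequence they read. Several are known for steering blood cell lineages, others for binding methylated DNA or telomeres. CHD2 is an ATP-dependent chromatin remodeller with chromodomains, known to sit at promoters of active genes. As a check of the family name, coding sequences of 39 of the 40 genes were translated, and each held at least 1 C2H2 zinc finger pattern. The count ranged from 1 in Zbtb5, Zbtb9, Zbtb22 and Zbtb43 to 14 in Zbtb41.

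The DNA of 5 members is shown as examples that differ in CHD2 signal; the promoter of Zbtb40, the strongest, is not among them. Zbtb20, Zbtb3 and Zbtb5 have strong peaks, Zbtb22 a peak of middling signal, and Zbtb33 none in the optimal list. For the last 4 genes the 250 bases before the RefSeq start are given 5′ to 3′ on the strand of the gene, from RefSeq on GRCm38.p6. They lie at chr19:8802263-8802512 (plus strand), chr4:45012413-45012662 (minus), chr17:33915926-33916175 (plus) and chrX:38189543-38189792 (plus). For Zbtb20, the 201 bases centred on the mm9 summit at chr16:42875615-42875815 (plus strand) are given from the mm9 genome. Capitals mark exact matches to short promoter motifs on either strand: CCAAT or ATTGG, the box bound by NFY; GGGCGG or CCGCCC, bound by Sp factors; CCGGAAG or CTTCCGG, bound by ETS factors; and ATGGCGG, a core of the YY1 site.
Zbtb20: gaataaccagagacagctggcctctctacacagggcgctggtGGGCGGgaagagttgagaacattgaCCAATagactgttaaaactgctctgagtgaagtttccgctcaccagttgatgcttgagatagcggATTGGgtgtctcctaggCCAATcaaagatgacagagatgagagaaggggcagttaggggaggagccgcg
Zbtb3: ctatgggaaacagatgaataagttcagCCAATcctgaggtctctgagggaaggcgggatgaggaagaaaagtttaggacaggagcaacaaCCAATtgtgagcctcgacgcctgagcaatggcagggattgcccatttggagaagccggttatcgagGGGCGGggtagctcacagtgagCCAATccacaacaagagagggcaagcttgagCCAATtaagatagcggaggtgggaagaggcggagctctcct
Zbtb5: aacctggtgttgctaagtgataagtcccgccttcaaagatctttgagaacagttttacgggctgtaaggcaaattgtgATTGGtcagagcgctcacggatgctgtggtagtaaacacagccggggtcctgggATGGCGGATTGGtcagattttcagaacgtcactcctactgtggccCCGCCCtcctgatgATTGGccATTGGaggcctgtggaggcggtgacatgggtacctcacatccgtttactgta
Zbtb22: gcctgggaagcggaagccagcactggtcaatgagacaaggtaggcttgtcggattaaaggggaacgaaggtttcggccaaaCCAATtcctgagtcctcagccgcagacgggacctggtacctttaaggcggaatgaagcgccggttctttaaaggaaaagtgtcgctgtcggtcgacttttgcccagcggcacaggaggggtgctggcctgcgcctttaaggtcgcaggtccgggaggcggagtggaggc
Zbtb33: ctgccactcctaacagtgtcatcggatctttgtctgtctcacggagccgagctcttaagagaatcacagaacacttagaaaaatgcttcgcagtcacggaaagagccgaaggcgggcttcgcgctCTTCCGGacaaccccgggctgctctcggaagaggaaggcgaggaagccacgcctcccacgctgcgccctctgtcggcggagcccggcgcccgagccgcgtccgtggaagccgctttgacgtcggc
The CCAAT box or its complement occurs 4 times in the Zbtb3 stretch, 4 times in that of Zbtb5, 3 times in the Zbtb20 window and 1 time in that of Zbtb22. The Zbtb33 stretch holds none, and its single match is the ETS core. The summit fell on base 101 of the Zbtb20 window, base 147 of the Zbtb3 stretch and base 31 of the Zbtb5 stretch, each counted from 1 at the 5′ end. At Zbtb22 it lay just before the first printed base.

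A gene was called occupied when a peak summit lay within 1 kb of its outer 5′ end. In the optimal list, which combines both replicates, 13 of 40 Zbtb genes were occupied (32.5%, exact Clopper-Pearson 95% interval 18.6 to 49.1%). Among all other protein-coding genes 3022 of 21440 were occupied (14.1%, 13.6 to 14.6%), and the background over all genes tested was 14.1%. The difference between the shares was 18.4 percentage points. Intervals cover counting error only and treat genes as independent, which neighbours that share a peak are not. Because there is 1 group and genes are not replicates, no test was made.

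Each replicate's own list was limited to as many of its strongest peaks as the optimal list holds. In replicate 1, 9 Zbtb genes were occupied (22.5%, interval 10.8 to 38.5%), against a background of 14.6%. In replicate 2 the count was 12 (30%, 16.6 to 46.5%), against a background of 14.2%. The Zbtb share was thus above the background in both replicates, but in replicate 1 its interval includes the background and the difference was 7.94 percentage points. In the pooled list, limited in the same way, 14 Zbtb genes were occupied (35%, interval 20.6 to 51.7%), against a background of 15%. In the conservative list the count was 10 (25%, 12.7 to 41.2%), against a background of 13.6%, which lies within that interval.

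**Figure D1:**
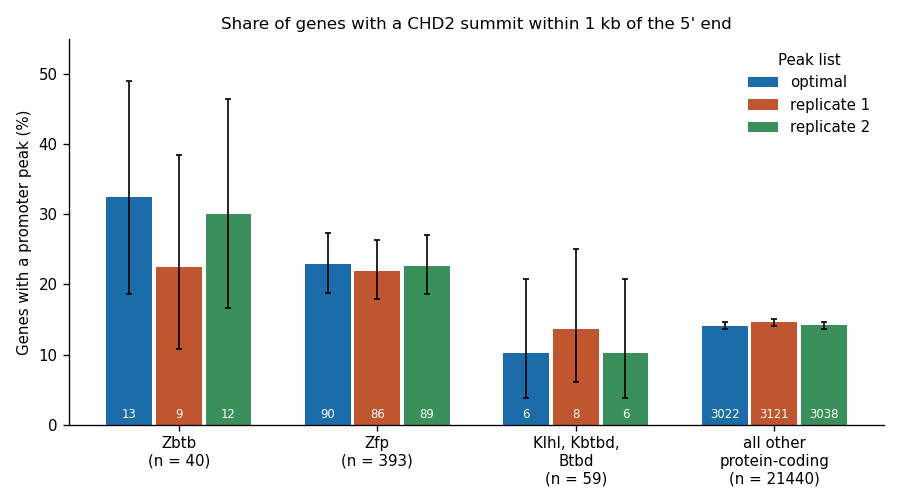
Percent of genes with a CHD2 summit within 1 kb of the 5′ end, for the 40 Zbtb genes, 2 related gene sets and all other protein-coding genes, in the optimal list and in the limited list of each replicate. Bars are shares, white numbers are counts and error bars are exact 95% intervals. The Zbtb bars stand at 32.5, 22.5 and 30%, with intervals that overlap those of the Zfp genes.

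The families that share 1 of the domains with Zbtb genes gave different shares. Zfp genes, which mostly encode C2H2 zinc finger proteins without a BTB domain, were occupied in 90 of 393 cases (22.9%, interval 18.8 to 27.4%), within the interval of the Zbtb share. Klhl, Kbtbd and Btbd genes, which encode BTB proteins mostly without zinc fingers, were occupied in 6 of 59 cases (10.2%, 3.82 to 20.8%). In replicate 1 these sets had 86 and 8 occupied genes, and in replicate 2 they had 89 and 6. Among 8 further genes for BTB zinc finger proteins without a Zbtb symbol, 3 were occupied in the optimal list (37.5%). The interval of 8.52 to 75.5% includes the background of 14.1%. These were Mynn at a signal of 26.7, Hic2 at 23.9 and Gzf1 at 19.3, while Bcl6, Bcl6b, Hic1, Patz1 and Zfp131 were not. Mynn and Hic2 were in the limited list of replicate 1 only, and Gzf1 was in that of neither replicate. Patz1 was in the list of replicate 1 alone, at 11.2, and Bcl6b in that of replicate 2 alone, at 12.5.

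The signal of a peak is the peak caller's own value and is read only within 1 list. The 13 occupied Zbtb genes had a median signal of 44.1 (range 20.2 to 456), against 45 over all 3035 occupied genes. A signal over 100 was seen at 3 of the 13, against 668 of the 3035. In replicate 1 the medians were 27 for Zbtb and 22.8 for all occupied genes, and in replicate 2 they were 18.7 and 22.7. Occupied Zbtb promoters were therefore near the middle of CHD2 promoter peaks in signal, with their median above that of all genes in 1 replicate and below it in the other. For each of the 13 genes the optimal signal equals that of the pooled list, so it is no measurement beyond the 2 replicates.

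**Figure D2:**
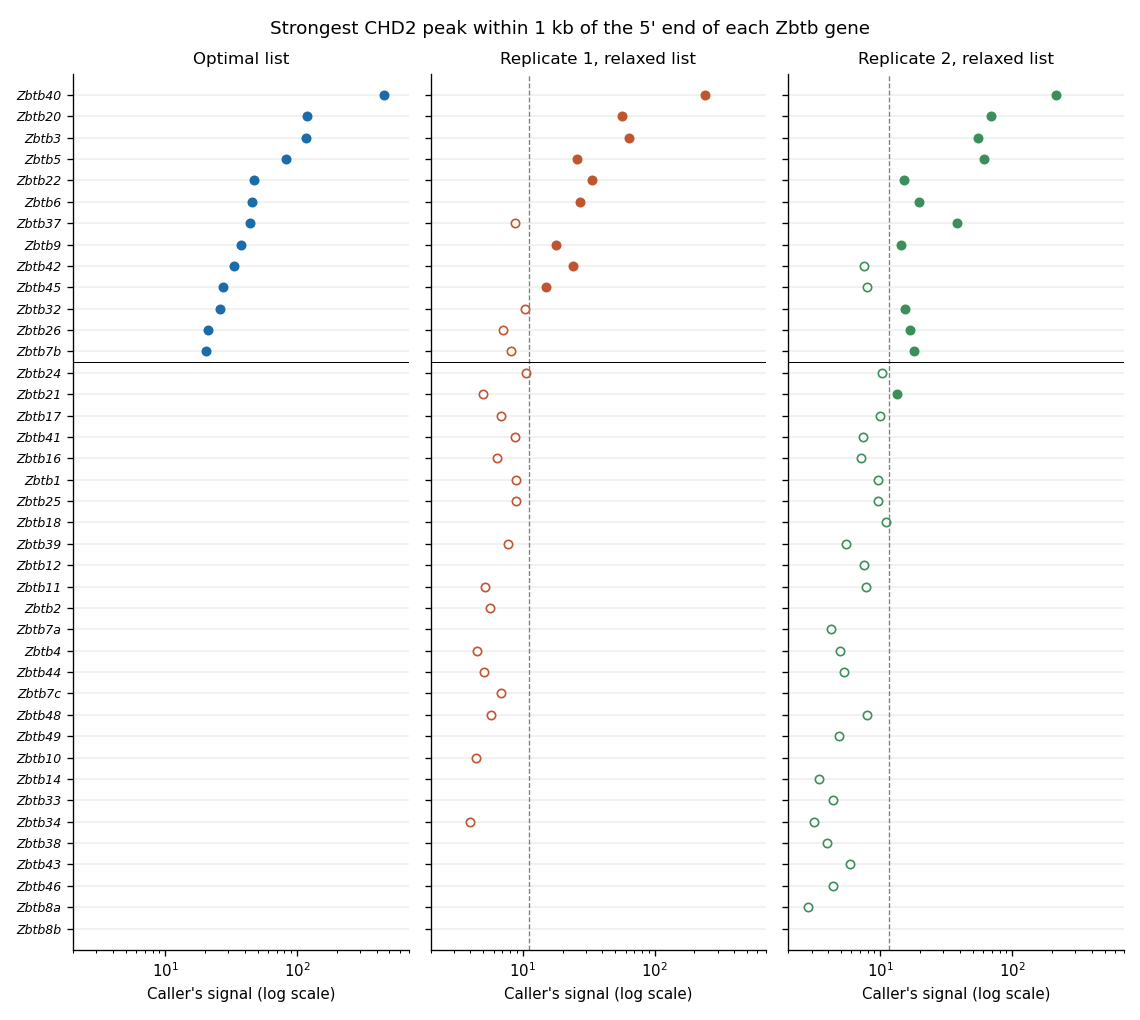
Signal of the strongest CHD2 peak within 1 kb of the 5′ end of each of the 40 Zbtb genes (log scale), in the optimal list and in the full relaxed list of each replicate. Filled points are peaks in the optimal list or in a replicate's limited list, open points are weaker relaxed peaks, dashed lines mark the limit at signals of 11.1 and 11.6, and the horizontal line separates genes with an optimal peak (above) from the others. Zbtb40 stands apart at the top in all 3 panels, and below the line only Zbtb21 has a filled point.

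Zbtb40 had the strongest peak of the family and one of the strongest in the whole list. Its human counterpart lies at a locus associated with bone mineral density, and its protein was the longest of the occupied members, at 1258 residues with 12 zinc finger patterns. The peak at chr4:137048693-137049010 (mm10) reached a signal of 456, the 3rd highest in the list (rank 3), with its summit 23 bp upstream of the 5′ end. Its signal was 242 in replicate 1 (rank 4) and 216 in replicate 2 (rank 3). The replicates placed the summit 30 and 20 bp upstream, so strength and position nearly coincided.

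Zbtb20, Zbtb3 and Zbtb5 followed, and each was in the lists of both replicates. Zbtb20, which represses alpha-fetoprotein in liver and shapes the hippocampus, had a signal of 119 (rank 609) at chr16:42875506-42875706. Its replicate signals were 56.7 (rank 702) and 69.4 (rank 472), with summits 73 and 94 bp upstream. The optimal summit also lay 8 bp from a start of the long non-coding gene 4932412D23Rik on the other strand. The start matched to Zbtb20 in the promoter sequences lay 371595 bp inside the gene, so the peak cannot be assigned to either gene. A second, weaker optimal peak at Zbtb20, with a signal of 12.4, had its summit 105 bp inside the gene.

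At Zbtb3 the optimal signal was 117 (rank 625) at chr19:8802324-8802480. The replicates gave 63.45 (rank 595) and 54.4 (rank 709), with summits 65 and 80 bp upstream, close to each other in rank and place. Zbtb5, whose human counterpart was described as a repressor of the p21 gene, had a signal of 82.0 (rank 1051) at chr4:45012452-45012811. Its replicates differed more, with 25.6 at rank 2004 in replicate 1 and 61.0 at rank 587 in replicate 2. The summits, 340 and 197 bp upstream, also lay farther apart than those of Zbtb3.

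Among the members with a middling signal, Zbtb22, Zbtb6 and Zbtb9 were occupied in both replicates. Their roles are less well described. Zbtb22 had a signal of 47.3 (rank 2139) at chr17:33915733-33916092, with 33.6 (rank 1371) in replicate 1 and 15.0 (rank 4991) in replicate 2. Zbtb6 had 45.1 (rank 2269) at chr2:37430750-37431109, with 27.0 (rank 1855) and 19.6 (rank 3106). Zbtb9 had 37.3 (rank 2957) at chr17:26972935-26973294, with 17.96 (rank 3457) and 14.4 (rank 5379). All 3 ranked higher in replicate 1.

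The other 6 occupied members were in the limited list of 1 replicate only. Zbtb42, whose human counterpart is linked to a muscle contracture syndrome, and Zbtb45 were in the list of replicate 1. Zbtb42 had an optimal signal of 33.0 (rank 3539) at chr12:112678430-112678789, with 23.8 (rank 2261) in replicate 1 and 7.47 (rank 22800) in replicate 2. Zbtb45 had 27.4 (rank 4615) at chr7:13009678-13010037, with 14.9 (rank 4761) and 7.89 (rank 19829). Both thus had a relaxed peak in replicate 2, but far below its limit of 11.6.

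Zbtb37, Zbtb32, Zbtb26 and Zbtb7b were in the list of replicate 2. Zbtb37 had an optimal signal of 44.1 (rank 2360) at chr1:161035196-161035555, with 8.65 (rank 16093) in replicate 1 and 38.1 (rank 1209) in replicate 2. Zbtb26 had 21.0 (rank 6438) at chr2:37443093-37443452, with 7.04 (rank 33238) and 16.8 (rank 4057). Both thus ranked far higher in replicate 2. Zbtb32, a factor of activated lymphocytes, had 25.9 (rank 5014) at chr7:30602570-30602929, with 10.4 (rank 9663) and 15.4 (rank 4734). Zbtb7b, also called ThPOK and needed for CD4 T cells, had 20.2 (rank 6645) at chr3:89393562-89393921, with 8.13 (rank 19719) and 17.9 (rank 3643). Replicate values are those of the strongest peak within 1 kb, which need not be the optimal peak. In replicates 1 and 2 its summit lay 346 and 57 bp upstream at Zbtb26, and 890 and 12 bp upstream at Zbtb7b.

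Counted together, 7 of the 13 occupied Zbtb genes were in both replicate lists (53.8%), 2 in that of replicate 1 only and 4 in that of replicate 2 only. Of all 3035 occupied genes 2170 were in both (71.5%). The rank of the strongest peak within 1 kb differed by more than 3 times between the 2 replicates at 7 of the 13 Zbtb genes. The same was so at 707 of all occupied genes with a relaxed peak in both replicates, for which no share is given. The strongest peak need not be the same peak in both replicates. The median rank difference was 3620 for Zbtb and 1084 for all occupied genes with a relaxed peak in both. The 6 members found in 1 replicate list were all among the 7 with the lowest optimal signal.

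**Figure D3:**
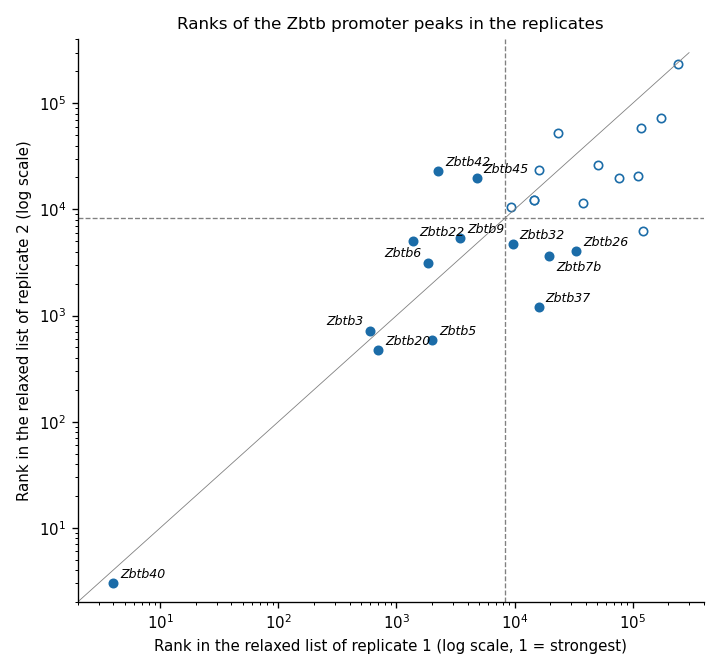
Rank of the strongest peak within 1 kb of the 5′ end in the relaxed list of replicate 1 (horizontal) and replicate 2 (vertical), both on log scales with 1 as the strongest, for Zbtb genes with a relaxed peak in both. Filled points have an optimal peak, dashed lines mark the last rank of the limited lists and the diagonal marks equal ranks. Zbtb40 sits at ranks 4 and 3, while Zbtb42, Zbtb45, Zbtb37, Zbtb26, Zbtb32 and Zbtb7b each lie beyond 1 dashed line.

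Role groups held 2 to 9 members each, too few to set their counts apart from the background of 14.1%. None of the 3 readers of methylated DNA was occupied: Zbtb33, also called Kaiso, had no relaxed peak in replicate 1 and 4.36 in replicate 2, Zbtb4 had 4.46 and 4.90, and Zbtb38 had none and 3.96. Of 6 lymphoid and myeloid lineage factors, Zbtb7b and Zbtb32 were occupied, while Zbtb16, Zbtb1, Zbtb46 and Zbtb7a were not. Zbtb16, also called PLZF and needed for NKT cells and spermatogonial stem cells, had 6.33 and 7.07, both below the limits. The telomere factors, Zbtb48 and Zbtb10, were not occupied. Of the pair of brain development factors, Zbtb20 was occupied and Zbtb18, a repressor of the developing cortex, was not, with no relaxed peak in replicate 1 and 10.98 (rank 9236) in replicate 2.

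Some members lay just outside the rule. Zbtb2, which binds unmethylated CpG islands in mouse stem cells, had an optimal peak of signal 102 (rank 773) with its summit 1012 bp inside the gene, at chr10:4387037-4387194. Zbtb7a, an erythroid factor that represses fetal globin in human cells, had one of 55.7 (rank 1709) 2248 bp inside. The occupied member farthest from its 5′ end was Zbtb37, at 512 bp upstream. The strand of Zbtb2, which sets its 5′ end, differed between the annotations used. With a window of 2.5 kb both genes were added, and Zbtb2 then stood 4th in the family.

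Zbtb21 was the single member in a replicate list without an optimal peak, with 13.4 (rank 6236) in replicate 2 and 4.97 (rank 122661) in replicate 1. Zbtb24, mutated in human ICF immunodeficiency, was close to the limit in both replicates, at 10.6 (rank 9261) and 10.3 (rank 10529). It was in the pooled list at 22.4 (rank 6877) and in the conservative list, but not in the optimal one. Zbtb17, also called Miz1 and a partner of Myc, had 6.81 and 9.95 (rank 11436). The divergent pair Zbtb1 and Zbtb25 shared 1 relaxed peak within each replicate, so these members are not independent. It had a signal of 8.94 in replicate 1 and 9.62 in replicate 2. Its summit lay 482 and 43 bp upstream of Zbtb1, so the replicates need not show the same peak. Of all 40 members, 26 had some relaxed peak within 1 kb in both replicates, and Zbtb8b alone had none in either. Over all 21480 genes, 9032 had one in both and 6847 in neither.

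The remaining members without an optimal promoter peak were Zbtb8a, Zbtb11, Zbtb12, Zbtb14, Zbtb34, Zbtb39, Zbtb41, Zbtb43, Zbtb44, Zbtb49 and Zbtb7c. Of the 27 members without one, 7 had an optimal summit elsewhere inside the gene, against 1649 of all 18445 genes without a promoter peak (8.94%). In order of signal they were Zbtb2, Zbtb7a, Zbtb46 (50.1, 30096 bp inside), Zbtb7c (30.1, 81585 bp), Zbtb44 (19.1, 42127 bp), Zbtb34 (18.2, 4446 bp) and Zbtb1 (11.2, 6514 bp). Gene length was not matched in this count. Another 3 had a summit within 10 kb of the gene, and 17 had none within 10 kb. Beside Zbtb2, Zbtb7a and Zbtb34, the nearest optimal summits were 3821 bp upstream of Zbtb46 (25.9), close to Tpd52l2, and 6351 bp upstream of Zbtb25 (11.2), in Zbtb1.

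Several occupied members had a stronger peak at some distance from the 5′ end. Zbtb32 had 70.55 at 3834 bp and 60.6 at 2672 bp inside the gene, against 25.9 at its outer 5′ end, and the first of these lay 76 bp from an internal RefSeq start. Zbtb7b had 49.3 at 1389 bp upstream, against 20.2 at the 5′ end. Zbtb45 had 52.3 at 4615 bp upstream, against 27.4 near the 5′ end. At Zbtb42 the values were closer, with 36.4 at 1769 bp upstream, against 33.0 near the 5′ end. For these genes the promoter score is not the highest signal of the locus.

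At the occupied Zbtb genes the summit lay mostly upstream of the 5′ end. It was upstream at 11 of 13 (84.6%), against 1983 of all 3035 occupied genes (65.3%), and inside the gene at 2, Zbtb45 at 189 bp and Zbtb32 at 69 bp. In replicate 1 the summit was inside at 2 of 9 Zbtb genes, Zbtb45 and Zbtb6, against 34.8% of all occupied genes. In replicate 2 it was inside at 1 of 12, Zbtb32, against 36%. The Zbtb6 summit lay 18 bp inside in replicate 1 and 11 bp upstream in the optimal list. The median summit position was 69 bp upstream for Zbtb and 44 bp upstream for all occupied genes. Within 100 bp of the 5′ end lay 8 of the 13 summits (61.5%), against 48.9% of all. Measured from the nearest RefSeq start, the Zbtb45 summit lay 6 bp upstream, which left Zbtb32 inside. Zbtb32 had no RefSeq start within 1 kb of the summit and was measured from its outer 5′ end.

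**Figure D4:**
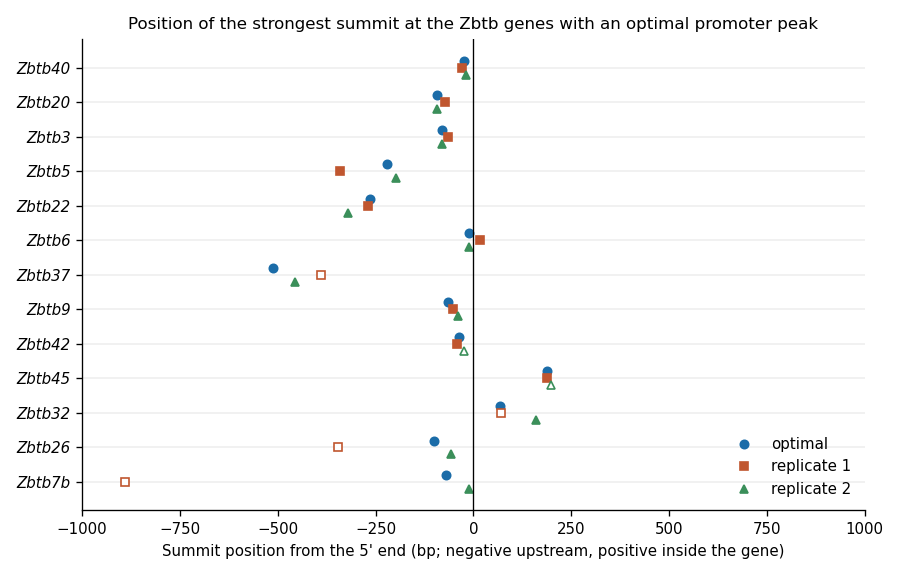
Distance in bp of the strongest summit from the 5′ end (0, negative upstream) at the 13 occupied Zbtb genes, in order of optimal signal. Circles are the optimal list, squares replicate 1 and triangles replicate 2, and open symbols are peaks outside a replicate's limited list. The 3 symbols lie close together at Zbtb40, Zbtb20 and Zbtb3 and farthest apart at Zbtb7b, where the weak peak of replicate 1 is 890 bp upstream.

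Divergent promoters, from which genes are read in both directions, were then counted. Only 1 of the 13 occupied Zbtb genes had a protein-coding gene on the other strand with its 5′ end within 1 kb upstream (7.69%), against 620 of all 3035 occupied genes (20.4%). This was Zbtb26, whose 5′ end lay 91 bp from that of Rabgap1, a Rab GTPase activator. The summit was 101 bp upstream of Zbtb26 and 10 bp from the 5′ end of Rabgap1, so the peak cannot be assigned to either gene. Over all 40 Zbtb genes the count was 1 (2.5%), against 6.91% of all protein-coding genes. With overlapping 5′ ends counted it was 5 (12.5%) against 10.8%, adding Zbtb1 and Zbtb25 with each other, Zbtb49 with Lyar, and Zbtb46 with Abhd16b.

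Long non-coding partners were counted separately, a choice made after seeing the data. With these alone, and with 5′ ends that overlap by up to 1 kb included, 4 of 13 Zbtb genes had a divergent partner (30.8%), against 241 of all 3035 occupied genes (7.94%). To the nearest RefSeq start of the partner, the summit lay 8 bp from 4932412D23Rik at Zbtb20, 178 bp from 1700055D18Rik at Zbtb5, 210 bp from Gas5 at Zbtb37 and 548 bp from Gm15417 at Zbtb7b. At Zbtb20, Zbtb5 and Zbtb37 the partner start was nearer than the 5′ end of the Zbtb gene, which lay 94, 220 and 512 bp away. At Zbtb7b the 5′ end of the Zbtb gene was nearer, at 69 bp. Gas5 is a host gene of small nucleolar RNAs, and another of its starts overlapped the 5′ end of Zbtb37 by 263 bp. With both kinds of partner and such overlaps, 5 of 13 Zbtb genes had one (38.5%), against 35.8% of all occupied genes.

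Promoter sequence of 300 bases, 250 before and 50 after a RefSeq start, was matched for 35 of the 40 members. Zbtb7c, Zbtb10, Zbtb16, Zbtb40 and Zbtb48 were not matched. The ratio of observed to expected CpG dinucleotides had a median of 0.752 at 12 occupied Zbtb genes (range 0.213 to 0.957) and 0.949 at 23 unoccupied ones (0.052 to 1.15). It was 0.812 over all occupied genes and 0.577 over all protein-coding genes. A ratio over 0.6 was found at 8 of 12 occupied and 21 of 23 unoccupied Zbtb promoters. Median GC content was 60% at occupied and 68.7% at unoccupied Zbtb genes.

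The family thus had CpG-rich promoters, and those with a CHD2 peak were not the richest in CpG. At Zbtb20 and Zbtb32, which had the 2 lowest ratios of the occupied members, the matched start lay over 1 kb from the outer 5′ end. It was 371595 bp inside Zbtb20 and 3910 bp inside Zbtb32. The same was so for Zbtb46, Zbtb8b, Zbtb11 and Zbtb7a among the unoccupied ones. With such entries left out, the medians were 0.798 at 10 occupied and 0.977 at 19 unoccupied members, but with only 76.9% and 70.4% of members covered these values are void as a check.

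**Figure D5:**
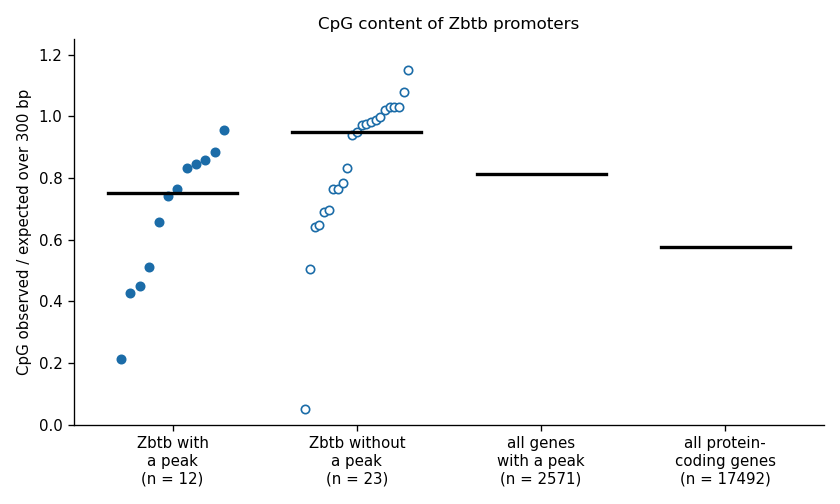
Observed over expected CpG in 300 bases around a RefSeq start. Points are Zbtb genes with an optimal CHD2 promoter peak (n = 12, filled) and without one (n = 23, open), and black lines are medians, also shown for all protein-coding genes with a peak (n = 2571) and for all with a sequence (n = 17492). The medians are 0.752, 0.949, 0.812 and 0.577 from left to right.

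Short motifs were searched in the same 300 bases as exact matches on both strands. The CCAAT box was present in 8 of 12 occupied Zbtb promoters (66.7%) and 5 of 23 unoccupied ones (21.7%). Over all occupied genes it was in 56.6% of promoters, and over all protein-coding genes in 39.2%. The occupied members with it were Zbtb3, Zbtb5, Zbtb7b, Zbtb9, Zbtb20, Zbtb22, Zbtb26 and Zbtb32. At Zbtb20 and Zbtb32 the bases searched lie over 1 kb from the occupied 5′ end, and with starts within 1 kb alone the counts were 6 of 10 occupied and 3 of 19 unoccupied members. The Sp core GGGCGG was in 66.7% of occupied and 69.6% of unoccupied members, against 46.3% of all promoters. Thus the CCAAT counts differed between the parts of the family, and the Sp counts were close.

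The ETS core CCGGAAG was in 5 of 12 occupied and 6 of 23 unoccupied members, against 22.4% of all occupied genes and 11.9% of all promoters. The YY1 core ATGGCGG was in 2 of 12 and 1 of 23, against 10.5% of all occupied genes and 5.44% of all promoters. Some motifs had no match in the 12 occupied members, too few to show a difference: the E-box CACGTG was in 5 of 23 unoccupied ones, the NRF1 core GCATGCGC in 4 and the cyclic AMP element TGACGTCA in 2. Over all occupied genes these had shares of 9.72, 4.82 and 4.01%, and over all promoters of 7.91, 3.61 and 2.33%. The element TCTCGCGA, bound by Banp and earlier ascribed to Kaiso, was in 1 of 12 occupied members, Zbtb42, and in none of the unoccupied ones, against 8.56% of all occupied genes and 1.53% of all promoters.

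On mm9, where the genome sequence could be read at the peak itself, the deposited list had 4613 peaks and was called from both replicates. It marked 11 of 39 Zbtb genes as occupied, against a background of 9.96%. Zbtb40 again led at a signal of 1191 (rank 5), followed by Zbtb20 at 166, Zbtb3 at 145 and Zbtb5 at 108. Zbtb8b was marked on mm9 alone, at 36.6, and Zbtb6, Zbtb26 and Zbtb45 on mm10 alone. The 5′ ends on mm9 came from GENCODE M1, so both builds need not score the same peak. At Zbtb8b the nearest optimal mm10 summit, with a signal of 34.9, lay at -14518 bp from the mm10 5′ end (negative upstream). Zbtb32 and Zbtb7b ranked 1302 and 2127 on mm9, against 5014 and 6645 at their mm10 5′ ends. Stronger mm10 peaks farther from these ends ranked 1280 and 2005. Whether these are the mm9 peaks was not tested, so the mm9 list is no strict check of the same promoter peaks. None of the 11 mm9 summits lay inside the gene as annotated on that build. Within 50 bp of the summit, CCAAT was found at 7 of 10 Zbtb peaks searched (that of Zbtb40 was not), against 49.4% of 1901 promoter peaks. The peak of Zbtb8b was among the 7. The Sp core GGGCGG was found at 4 of 10, against 26.6%, TCTCGCGA at 1 of 10, against 15%, and CCGGAAG at 0 of 10, against 8.52%.

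The proteins of occupied and unoccupied members overlapped in size. The median length was 518 residues over 13 occupied members (range 420 to 1258) and 645 over 26 unoccupied ones (434 to 1197). Zinc finger patterns numbered 3 at the median of the occupied members (1 to 12) and 4 at that of the unoccupied ones (1 to 14). The longest occupied member was Zbtb40 and the longest unoccupied one Zbtb38.

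Some genes for partners of BTB zinc finger proteins were occupied. Cul3, the ligase scaffold, had an optimal signal of 87.9 at 148 bp upstream, with 40.7 in replicate 1 and 45.6 in replicate 2. The histone deacetylase gene Hdac1 had 34.9 at 679 bp inside, with 21.1 and 15.0. Another deacetylase gene, Hdac2, had 7.003 at 740 bp upstream, near the lowest signal of the optimal list (5.74). Of the replicates, it was in the list of replicate 2 alone, at 19.35, with that summit 183 bp upstream. Bcor, Ctnnd1, Hdac3, Myc, Ncor1 and Sin3a had no optimal promoter peak, though Ncor1 was in the list of replicate 1 at 11.8. Of the BTB factors without C2H2 fingers, Bach1, Bach2, Nacc1 and Nacc2, none had one in any of the lists.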

How the data were processed

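CHD2 ChIP-seq was measured in 2 biological replicates of ES-E14 cells. The data deposited by the authors are peak lists. The irreproducible discovery rate procedure gave the optimal and conservative lists, per the deposited descriptions, and the relaxed lists held 300000 peaks each. Neither peak caller nor aligner is given in the sources used here, and the control was not analysed here. The deposited signal per peak has no stated normalization and was used within 1 list only. The deposited −log10 q-value was not used. Summits came from the deposited summit offset. Read depth is unknown, so a difference in depth between the replicates, which can change both signals and ranks, was not tested.

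Genes on mm10 were those of RefSeq GRCm38.p6. Strand came from the RefSeq promoter table for 17492 protein-coding genes and from GENCODE M1 by name for 3988. Another 420 of 21900 had no strand and were left out. Of 16327 genes with both sources, 47 differed in strand, among them Zbtb2, for which the promoter table was used. The 5′ end is the outer one of the gene. The mm9 list was set against GENCODE M1, and coordinates were not moved between builds. Zbtb11 had no gene of that name in GENCODE M1. The zinc finger pattern was C, 2 to 4 residues, C, 12 residues, H, 3 to 5 residues, H. Shares have exact Clopper-Pearson 95% intervals from SciPy 1.17.1 in Python 3.11.15. Sequences were handled with Biopython 1.88, and figures were drawn with matplotlib 3.10.9. Gene assignment was tested on simulated peaks.

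Every Zbtb gene is accounted for. Those with an optimal promoter peak are given in full, those with a replicate peak alone with that value, and others by name. Part of the list of partner genes is not reported here. The members, comparison lists and motifs were chosen with earlier results of these data known. Alternatives changed the window, the list, the number of peaks, the gene assignment, the partner rule, the build and the replicate used. Starts of the promoter table and partners with overlapping 5′ ends or non-coding genes were added after seeing the data.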

Additional observations from a re-analysis of the deposited data

How the results depend on the processing

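No paired analysis was possible because there was 1 group and no fit between groups. The count of 13 occupied Zbtb genes ranged from 9 to 12 in single replicates, 10 in the conservative list and 15 with a window of 2.5 kb, and was 8 when either replicate's list was shortened to 0.5 of its length. With lists 2 times as long it was 15 in replicate 1 and 17 in replicate 2. Zbtb37 was lost with a window of 500 bp, and Zbtb26 when a peak was given only to its nearest protein-coding gene. Long non-coding genes did not enter that rule. The share difference of 18.4 percentage points was positive throughout. It was 11.4 in the conservative list, 12.4 among optimal peaks above the median signal and 7.94 to 15.8 in single replicates. Replicate 1 alone gave the lowest value. The median signal was 54.9 in the mm9 list and 18.7 to 27 in single replicates, whose signals are on scales of their own. The count of 2 summits inside the gene was 4 with 2.5 kb, 1 in the conservative list, 0 above the median signal and in the mm9 list, 1 from the nearest RefSeq start and 1 to 2 in single replicates. The count of 1 divergent partner was 0 in the conservative list, above the median signal and with nearest protein-coding genes only. It was 5 with long non-coding partners and overlapping 5′ ends, and 0 to 1 in single replicates. These counts are too small to rank one setting above another, and the cause of each shift was not tested. The depth of the replicates is unknown, so a member without a peak was not detected rather than shown to be unbound.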

Other observations

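Several Zbtb genes have optimal CHD2 peaks close by that lie nearer to the 5′ end of a neighbour, and these genes were named after their positions were seen. A peak of signal 214 (rank 220) lay 7852 bp downstream of the 5′ end of Zbtb6, beyond the end of the gene, and 1303 bp from the 5′ end of Rc3h2, an RNA-binding ubiquitin ligase gene, so it was at neither promoter by the window of 1 kb. Near Zbtb32, a peak of 50.4 lay 16 bp from the 5′ end of Kmt2b, a histone methyltransferase gene. A peak of 40.1 near Zbtb22 lay 242 bp from the 5′ end of Daxx, which encodes an H3.3 chaperone. Near Zbtb1, a peak of 70.2 lay 251 bp from Hspa2, a heat shock protein gene, and near Zbtb46 a peak of 25.9 lay 59 bp from Tpd52l2. None of these was counted as a Zbtb promoter peak.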
